A study of Rattus norvegicus with 3 samples.

Results

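The 8 genes C1qa, C1qb, C1qc, Cd163, Mrc1, Adgre1, Cd68 and Cx3cr1 are widely used to recognise tissue macrophages, the phagocytes that live in an organ and clear debris from it. They were picked by name, the 3 chains of complement C1q together with 5 macrophage surface and lysosome genes, out of 20896 gene names in a rat single-cell RNA series. All 8 were present in every library, among 19241 names in sham, 19665 in UAC and 19725 in UAC + miR-330.

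C1q opens the classical complement pathway by binding antibody complexes and dying cells, and it is assembled from A, B and C chains in equal amounts. Unlike most complement proteins, which come chiefly from the liver, C1q is made largely by macrophages and related myeloid cells. In joints such cells line the synovium, and in bone marrow they surround maturing red cells, engulf expelled nuclei and recycle iron from haem.

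Condylar cartilage and subchondral bone of the temporomandibular joint were taken from wild-type SD rats whose age the sources used here do not give. All animals received an adeno-associated virus (AAV) by injection into the joint, so the controls carry a virus too. The groups were sham surgery with Vector AAV, unilateral anterior crossbite (UAC, a dental device that overloads the joint) with Vector AAV, and UAC with an AAV carrying miR-330, kept for 8 weeks. Which library is which rests on sample titles read with the design text, since the treatment labels of the 2 UAC libraries are the same. Each group is 1 library of 16 condyles pooled from 8 rats, so differences between groups lack any replicate check and rats within a pool cannot be separated.

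The deposited tables give each gene's mean count in every cluster of a library, with 15 clusters (sham), 18 (UAC) and 19 (UAC + miR-330), each library having been clustered alone. UMIs, the tags that mark single captured RNA molecules, were recovered from these means and came to 77668015, 92629658 and 97255383 in that order. Levels of the 8 genes are UMIs per 1000000 counted in the named library or cluster, abbreviated CPM. Numbers in brackets after a level are exact Poisson 95% intervals, after a share exact binomial ones, and after a log2 ratio exact conditional binomial ones. All of them cover counting error alone. Cells per cluster cannot be counted from these tables, so fewer macrophages and less RNA per macrophage cannot be told apart in any value of the 8 genes.

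Where the 8 genes lie was asked first with markers that leave them out. Of 23 other macrophage markers, a marker being enriched when it had at least 10 UMIs and at least 2 times the CPM of the remaining clusters, 20 were enriched in sham cluster 15, 18 in UAC cluster 9 and 18 in UAC + miR-330 cluster 10. This is the macrophage-marker cluster of each library, and it held 4.36%, 6.33% and 6.16% of all UMIs. Its label was borne out in part. Csf1r, the receptor for the growth factor that keeps macrophages alive, stood at 292, 296 and 320 CPM there. Among markers of long-lived resident cells, Timd4 was listed in no library, Marco was at 0 where listed (both UAC libraries), and Vsig4 had 1, 2 and 1 UMIs. Folr2, Lyve1, Spic, Cd5l and Siglec1 of the same marker list were enriched in this cluster in every library. Its 10 leading genes held 2 monocyte markers, Fcnb and Vcan, and 0 macrophage markers in each library. The cluster is therefore given no cell type name, and the word resident is not used for it.

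The labels name chondrocytes and osteoclasts as the cells studied, and the clusters with chondrocyte markers carried little of the C1q genes. Chondrocyte markers were enriched to 8 of 9 in sham cluster 12, 8 of 9 in UAC cluster 16 and 9 of 9 in UAC + miR-330 cluster 17, where the C1q chains together reached 3.44, 1.84 and 2.72 CPM. All 10 osteogenic and fibroblast markers were enriched in these clusters too, at larger sums (76559, 65912 and 64386 CPM against 42627, 33411 and 40311), so the C1q level is not that of chondrocytes alone. No cluster of any library had more than 3 osteoclast markers enriched, of 9 or 10 listed, so a cluster of osteoclasts was not found in which to read the 8 genes.

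The C1q chains fell from sham to UAC inside the macrophage-marker cluster. Summed, C1qa, C1qb and C1qc held 6765 UMIs in sham, 4072 in UAC and 5553 in UAC + miR-330, which is 87.1 (85.0 to 89.2), 44.0 (42.6 to 45.3) and 57.1 (55.6 to 58.6) CPM of the whole library. Inside that cluster the sum was 1513 (1471 to 1555), 436 (419 to 453) and 503 (486 to 522) CPM. Sham stood far above both UAC libraries, and no interval of sham met one of theirs. As log2 ratios of UAC to sham these levels give −0.99 (−1.04 to −0.93) for the library and −1.80 (−1.86 to −1.73) for the cluster. With every cluster that had at least 5 macrophage markers enriched summed instead, the second becomes −0.69 (−0.75 to −0.63), short of a 2-fold difference. Those sets are unlike, clusters 12 and 15 in sham but 9, 13 and 16 in UAC. Clusters 12 and 16 are those with chondrocyte markers. The cluster second in C1q level is in the UAC set, as cluster 13, but not in the sham set. With that cluster of both libraries added to the macrophage-marker cluster, each C1q chain was still at least 2-fold lower in UAC. That sum was chosen after the data were seen. From UAC to UAC + miR-330 the log2 ratios were 0.38 (0.32 to 0.44) for the library and 0.21 (0.13 to 0.28) for the macrophage-marker cluster. The value inside the cluster was close to the median log2 ratio of 0.18 over all 9076 genes tested there. UAC takes part in both steps, so the 2 steps share a library and are not independent.

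A gene was called when its log2 ratio was at least 1 in size, its intervals in the 2 libraries did not meet and both libraries together held at least 50 UMIs, which all 8 genes did in the whole libraries and in the macrophage-marker cluster. Of the 8 genes 5 were lower in UAC than in sham within the macrophage-marker cluster, C1qa, C1qb, C1qc, Cd163 and Mrc1, where 3.01% of 8585 tested genes were called lower. Per macrophage-marker UMI Mrc1, at −0.85, is short of the fold. None of the 8 was higher in that step, against 0.745% of genes. In the miR-330 step the same cluster had 1 of the 8 called higher, Cd163, beside 3.13% of 9076 genes, and 0 called lower beside 0.826%. Over whole libraries 2 of the 8, C1qa and Cd163, were lower in UAC against 1.88% of 14235 genes (with deposited mean counts Cd163 alone, C1qa being at −0.94), and 0 were higher against 2.3%. Whole libraries in the miR-330 step had 0 of the 8 called higher and 0 lower, with 2.3% and 0.87% of 14485 genes as background.

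**Figure D1:**
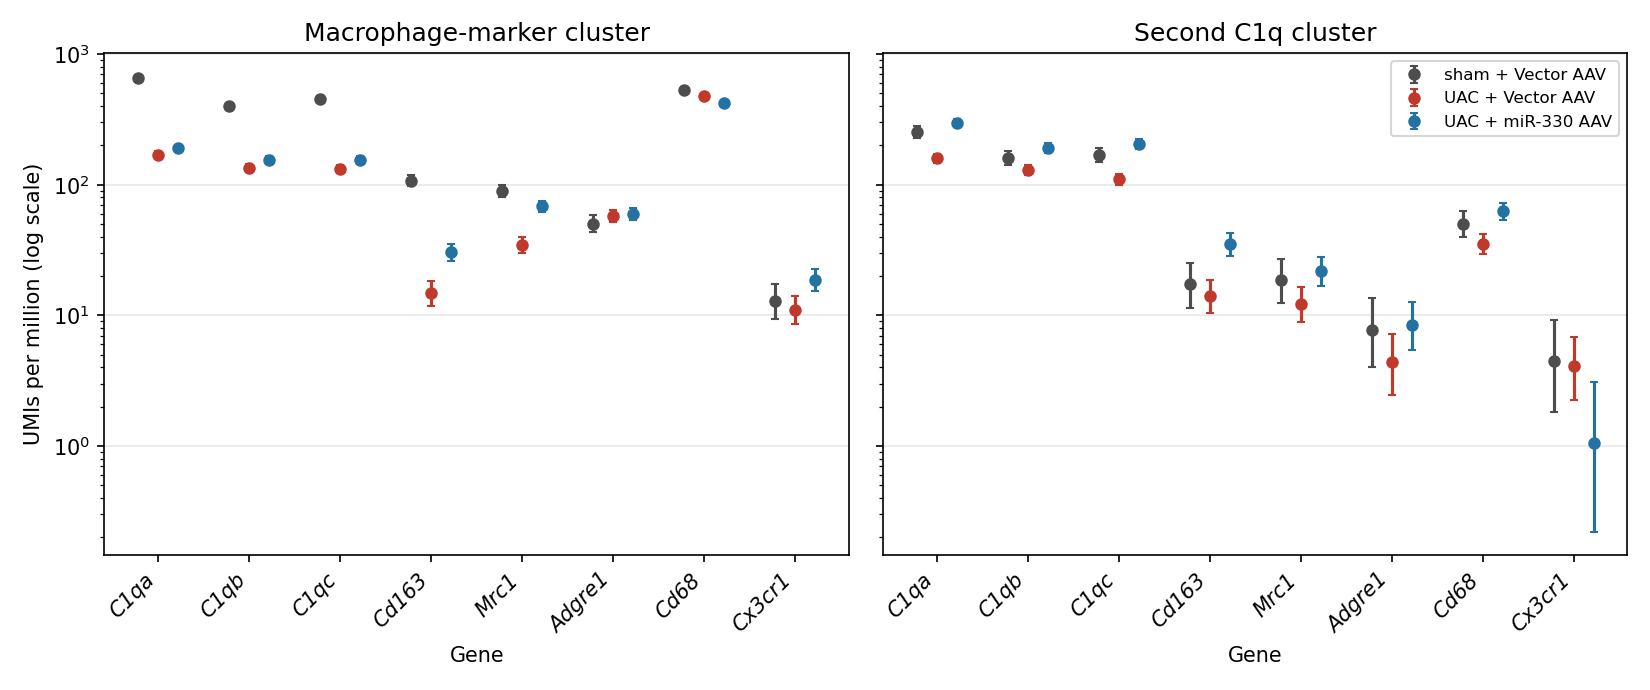
Levels of the 8 genes in UMIs per 1000000 (log scale) in the macrophage-marker cluster (left) and in the cluster next in C1q level in the sham and UAC libraries and first in UAC + miR-330 (right), with exact Poisson 95% intervals as bars where they exceed the point. Points are single libraries, sham in grey, UAC in red and UAC + miR-330 in blue. In the left panel C1qa stands at 655, 170 and 192 CPM and Cd163 at 108, 14.8 and 30.4.

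C1qa (ENSRNOG00000012807) encodes the A chain, which carries part of the globular heads and the collagen-like stalk of C1q. Its level in the macrophage-marker cluster was 655 (628 to 683) CPM in sham, 170 (159 to 180) in UAC and 192 (181 to 203) in UAC + miR-330. C1qb (ENSRNOG00000012749), the B chain, was at 404 (383 to 426), 134 (125 to 143) and 156 (146 to 166) CPM there. C1qc (ENSRNOG00000012804), the C chain, was at 453 (431 to 477), 132 (123 to 142) and 156 (146 to 166) CPM. Each chain was highest in sham and lowest in UAC, with the UAC + miR-330 level nearer to UAC. In the UAC to sham step the log2 ratios were −1.95 (−2.06 to −1.84) for C1qa, −1.60 (−1.72 to −1.47) for C1qb and −1.78 (−1.90 to −1.65) for C1qc. The miR-330 step gave 0.18, 0.22 and 0.24 in the same order of chains, all near the 0.18 of the median gene. Over whole libraries the chains had log2 ratios of −1.13, −0.79 and −0.98 for UAC to sham, then 0.42, 0.28 and 0.42, beside medians of −0.02 and 0.13 over all genes tested.

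The chains did not keep a single ratio to each other. C1qa made up 43.3% (41.9 to 44.7) of C1q UMIs in the macrophage-marker cluster of sham, 38.9% (37.0 to 40.8) in that of UAC and 38.1% (36.4 to 39.9) in that of UAC + miR-330. C1qb took 26.7%, 30.7% and 30.9%, while C1qc took 30.0%, 30.4% and 31.0%. The A chain thus had a larger part in sham than in the UAC libraries and the B chain a smaller part, with C1qc alike in all 3. Within UAC + miR-330 the C1qa share differed between clusters as well, at 43.0% (40.8 to 45.2) in cluster 5 against 38.1% in cluster 10. Cluster 11 of that library had the highest C1qa share among clusters with at least 100 C1q UMIs, 64.2% (54.5 to 73.2) of 109. In sham cluster 13 the C chain was scarce, with 13.8% (8.63 to 20.5) of 145 C1q UMIs.

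Most C1q UMIs lay in 2 clusters of each library. The macrophage-marker cluster held 75.7% (74.6 to 76.7) of them in sham, 62.8% (61.3 to 64.3) in UAC and 54.3% (53.0 to 55.6) in UAC + miR-330. A second C1q cluster, chosen on the C1q level itself and so only described, held 13.4%, 33.5% and 35.5%. It was sham cluster 14, UAC cluster 13 and UAC + miR-330 cluster 5, with 1.99%, 3.69% and 2.92% of all UMIs. By their markers these clusters did not hold the same mix of cells across libraries. Erythroid markers were enriched to 7, 5 and 7 of 7 listed, summed to 75482, 10105 and 68494 CPM and were led by Hba-a1, a haemoglobin chain. Mast and basophil markers were enriched to 7, 7 and 3 of 7 and summed to 6459, 11121 and 668 CPM, led by the protease Mcpt10. Macrophage markers were enriched to 4, 8 and 8, summed to 553, 401 and 681 CPM and were led by Apoe, a lipid carrier. The part of these other cells in the C1q level of the second cluster was not tested.

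In the second C1q cluster the summed C1q level was 584 (546 to 623) CPM in sham, 399 (378 to 421) in UAC and 695 (665 to 726) in UAC + miR-330. There UAC + miR-330 was highest, unlike in the macrophage-marker cluster, where sham was. The log2 ratios were −0.55 (−0.67 to −0.43) and 0.80 (0.70 to 0.90). Set against macrophage markers rather than all RNA, the second cluster hardly varied, with 1055 (987 to 1126), 996 (944 to 1051) and 1020 (976 to 1066) C1q UMIs per 1000 macrophage-marker UMIs. In the macrophage-marker cluster the same quantity was 478 (465 to 491), 198 (190 to 206) and 223 (215 to 231). C1q thus fell in UAC relative to the other macrophage markers in the macrophage-marker cluster, while in the second cluster the intervals of all 3 libraries overlapped. Over whole libraries it was 306, 146 and 190 per 1000, with the marker list itself at 284, 301 and 300 CPM.

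The order of clusters by C1q level was steep at the top and flat below. In sham the macrophage-marker cluster came first, cluster 14 next and cluster 10, which had 8 of 12 neutrophil markers enriched, followed at 56.6 CPM. Sham clusters 8, 7, 6 and 13 came next at 17.7, 17.0, 16.7 and 12.8 CPM, with overlapping intervals between neighbours, and the remaining 8 reached at most 5.70. In UAC the top intervals met, 436 for cluster 9 and 399 for cluster 13, and the other 16 clusters lay between 0.606 and 2.90 CPM with every neighbour's interval overlapping. In UAC + miR-330 cluster 5 ranked above cluster 10, and cluster 6 came after them at 28.7 CPM. The clusters outside these 2 kept the order of libraries seen in the macrophage-marker cluster. Together they gave 10.2 (9.47 to 10.9), 1.80 (1.52 to 2.11) and 6.42 (5.91 to 6.97) CPM of C1q, a log2 ratio of −2.50 for UAC to sham and 1.83 for the miR-330 step.

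**Figure D2:**
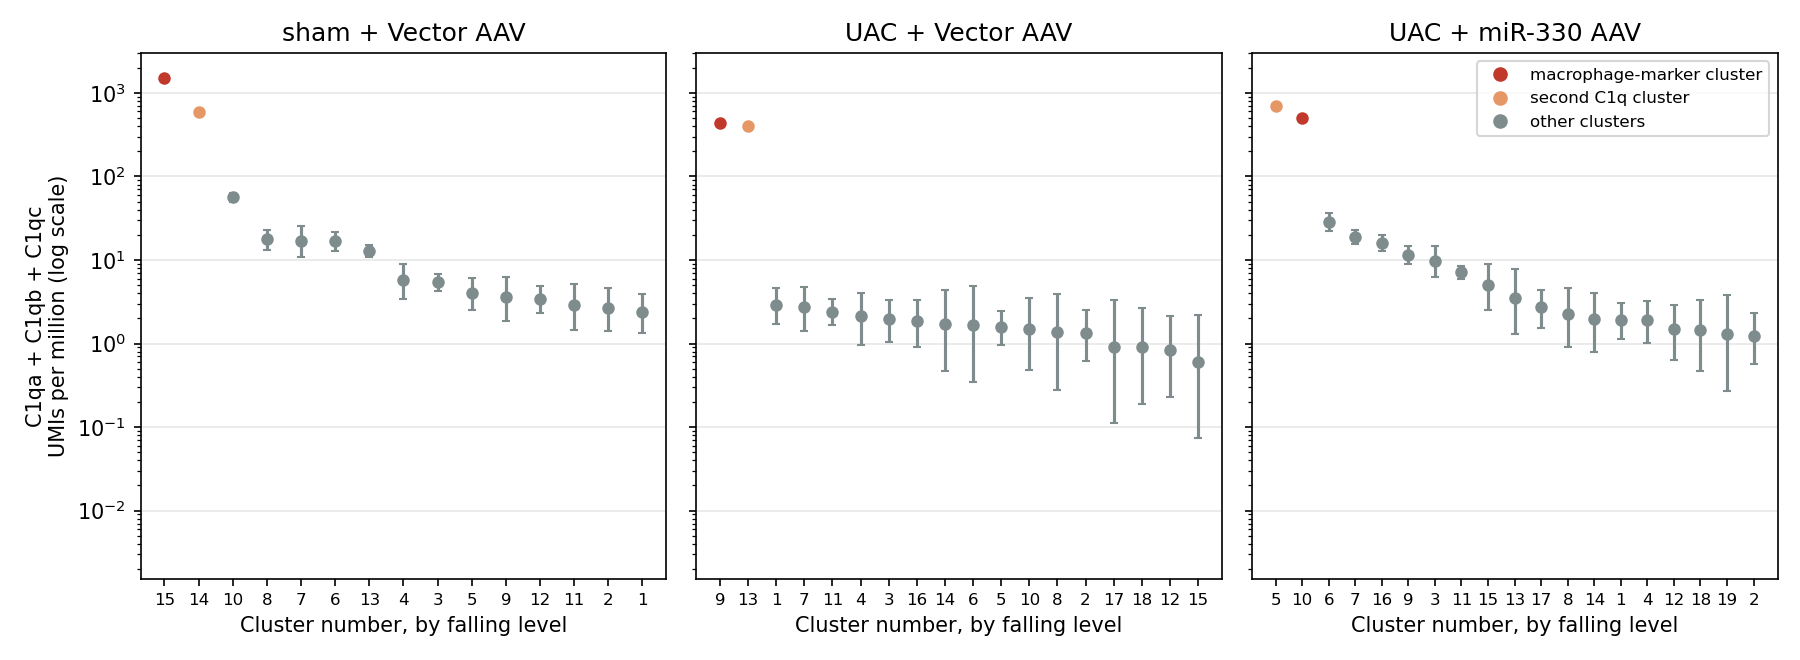
Summed level of C1qa, C1qb and C1qc in UMIs per 1000000 (log scale) in each of the 52 clusters, ordered by level within each library, with exact Poisson 95% intervals. The macrophage-marker cluster (red) and second C1q cluster (orange) lie far above the others (grey). The highest grey points are 56.6 CPM in sham, 2.90 in UAC and 28.7 in UAC + miR-330.

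Clusters with at least 5 of 12 neutrophil markers enriched show how the low C1q levels differed. In sham those were clusters 10 and 8, at 56.6 and 17.7 CPM. In UAC clusters 7, 8, 12 and 18 were at 2.71, 1.36, 0.838 and 0.910 CPM. In UAC + miR-330 clusters 6, 9, 15 and 18 were at 28.7, 11.5, 5.06 and 1.44 CPM. The C1q chains were thus low in every UAC cluster of this kind and uneven in the other libraries. The part of free RNA in these levels was not tested. Outside the 2 top clusters of sham, C1qc took 23.5% (20.5 to 26.7) of C1q UMIs against 30.0% (28.7 to 31.3) in the macrophage-marker cluster. C1qb took 32.5% (29.2 to 36.0) there against 26.7% (25.5 to 28.0).

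Cd163 (ENSRNOG00000010253) encodes the receptor by which macrophages take up haemoglobin bound to haptoglobin. Its macrophage-marker cluster level was 108 (97.1 to 119) CPM in sham, 14.8 (11.9 to 18.3) in UAC and 30.4 (26.1 to 35.2) in UAC + miR-330. The 3 intervals were apart, with sham highest and UAC lowest. Its log2 ratio of −2.86 (−3.22 to −2.52) for UAC to sham was the lowest of the 8 in that cluster, and 1.03 (0.66 to 1.42) for the miR-330 step was the highest, though per macrophage-marker UMI that value is 0.99 and short of the fold. In the second C1q cluster the levels were 17.4 (11.5 to 25.4), 14.0 (10.3 to 18.6) and 35.3 (28.7 to 42.9) CPM. There sham and UAC overlapped, at a log2 ratio of −0.32 (−1.02 to 0.42), while the miR-330 step came to 1.32 (0.82 to 1.86), a value between clusters with different markers. Over whole libraries Cd163 stood at 5.19 (4.69 to 5.72) in sham, 1.57 (1.32 to 1.84) in UAC and 3.13 (2.78 to 3.50) in UAC + miR-330, in CPM, with log2 ratios of −1.73 (−2.01 to −1.45) and 1.00 (0.71 to 1.29). The last falls just short of the fold, and with deposited mean counts in place of CPM it passes, at 1.23.

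Of all Cd163 UMIs the macrophage-marker cluster held 90.6% (87.3 to 93.2) in sham, 60.0% (51.5 to 68.0) in UAC and 59.9% (54.1 to 65.4) in UAC + miR-330. The second C1q cluster held 6.70%, 33.1% and 32.9%. Among clusters outside the 2 C1q clusters, 7 of 13, 11 of 16 and 9 of 17 had 0 UMIs of Cd163, and the highest reached 0.565, 1.52 and 2.46 CPM. A count of 0 has an exact Poisson upper limit of 2.73 CPM in the smallest of all 52 clusters.

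Mrc1 (ENSRNOG00000018251) encodes the mannose receptor, an endocytic lectin for sugars of microbes and of worn glycoproteins. Its level in the macrophage-marker cluster was 89.8 (80.0 to 100.5) CPM in sham, 34.8 (30.2 to 39.9) in UAC and 68.7 (62.2 to 75.6) in UAC + miR-330. In CPM UAC was thus lowest and UAC + miR-330 lay between, closer to sham. Per 1000 macrophage-marker UMIs the levels were 28.4 (25.3 to 31.8), 15.8 (13.7 to 18.1) and 30.4 (27.5 to 33.4). On that scale UAC + miR-330 was not below sham, and their intervals overlapped. The log2 ratios were −1.37 (−1.63 to −1.11) and 0.98 (0.74 to 1.23), the second short of the fold in CPM and past it in deposited mean counts, at 1.22. Per macrophage-marker UMI the first was −0.85. Over whole libraries Mrc1 stood at 5.16 (4.67 to 5.69) in sham, 3.57 (3.20 to 3.98) in UAC and 6.66 (6.16 to 7.20) in UAC + miR-330, in CPM, with UAC + miR-330 above sham. Levels of Mrc1 in the second C1q cluster, in CPM, were 18.7 (12.5 to 26.9), 12.3 (8.85 to 16.6) and 21.9 (16.8 to 28.0), where sham overlapped with both other libraries.

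Mrc1 also stood out in a cluster that the C1q genes did not mark. In UAC + miR-330 cluster 18, with 6 of 7 mast and basophil markers and 6 of 12 neutrophil markers enriched, Mrc1 reached 25.3 (20.3 to 31.1) CPM from 88 UMIs, while C1q was at 1.44. The interval overlapped with that of Mrc1 in the second C1q cluster of the same library. In UAC the neutrophil-marker cluster 18 came next after the 2 C1q clusters, with Mrc1 at 8.49 CPM and C1q at 0.910. The highest such cluster in sham was cluster 10 at 3.79 CPM.

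Adgre1 (ENSRNOG00000046254) encodes F4/80, an adhesion receptor long used to stain rodent macrophages. In the macrophage-marker cluster it was at 50.5 (43.2 to 58.7), 57.8 (51.8 to 64.3) and 59.8 (53.8 to 66.3) CPM in sham, UAC and UAC + miR-330. The 3 intervals overlapped, and a difference in CPM was not detectable at this depth, with log2 ratios of 0.19 (−0.08 to 0.47) and 0.05 (−0.17 to 0.27). Per 1000 macrophage-marker UMIs, however, Adgre1 was at 16.0 (13.7 to 18.6) in sham, below 26.2 (23.5 to 29.2) in UAC, a log2 ratio of 0.71 (0.45 to 0.99). It was the least concentrated of the 8, with 33.4%, 49.6% and 45.6% of its UMIs in that cluster. The next highest clusters, with 5, 2, 3 and 5 of 9 B cell markers enriched, were sham clusters 11 and 4 at 13.2 and 12.3 CPM, UAC cluster 1 at 16.3 and UAC + miR-330 cluster 14 at 15.8. In the second C1q cluster Adgre1 was no higher than in those, at 7.75, 4.39 and 8.46 CPM on 12, 15 and 24 UMIs.

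Cd68 (ENSRNOG00000037563) encodes a lysosomal membrane glycoprotein of phagocytes. Its macrophage-marker cluster levels were 531 (506 to 556) CPM in sham, 479 (461 to 497) in UAC and 420 (404 to 437) in UAC + miR-330. The direction depends on the scale: log2 ratios of −0.15 (−0.23 to −0.06) and −0.19 (−0.27 to −0.11) turn to 0.047 and 0.047 with deposited mean counts, while per macrophage-marker UMI the first turns to 0.37 and the second stays, at −0.23. Over whole libraries Cd68 was at 30.3 (29.1 to 31.5), 38.7 (37.4 to 40.0) and 35.3 (34.1 to 36.5) CPM, highest in UAC, where the C1q genes were lowest. The log2 ratios there were 0.35 and −0.13, the second turning to 0.10 with mean counts. Besides the 2 C1q clusters, Cd68 was found in neutrophil-marker clusters, at 35.3 CPM in sham cluster 10, 45.1 in UAC cluster 12 and 47.6 in UAC + miR-330 cluster 9.

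Set against C1q, Cd68 separated the 2 C1q clusters. In the macrophage-marker cluster there were 35.1 (33.2 to 37.0) Cd68 UMIs per 100 C1q UMIs in sham, 110 (104 to 116) in UAC and 83.4 (79.1 to 88.0) in UAC + miR-330. In the second C1q cluster the numbers were 8.63 (6.76 to 10.9), 8.86 (7.30 to 10.7) and 9.08 (7.75 to 10.6), alike in all 3 libraries. Mrc1 was as even there, with 3.21, 3.08 and 3.15 UMIs per 100 of C1q and overlapping intervals, against 5.94, 7.98 and 13.6 in the macrophage-marker cluster. Cd163 was at 2.99 (1.96 to 4.37), 3.52 (2.58 to 4.69) and 5.07 (4.11 to 6.20) per 100 in the second cluster, where the 3 intervals overlapped, those of sham and UAC + miR-330 narrowly. Cx3cr1 was at 1.03 (0.56 to 1.73) per 100 in UAC and 0.15 (0.03 to 0.45) in UAC + miR-330, on 14 and 3 UMIs, with intervals apart. Relative to C1q, on which the second cluster was chosen, Cd68 and Mrc1 thus overlapped between libraries, while its markers of other cells differed widely.

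Cx3cr1 (ENSRNOG00000018509) encodes the receptor for fractalkine, which guides and sustains monocytes and some tissue macrophages. It had the fewest UMIs of the 8, 69 in sham, 114 in UAC and 171 in UAC + miR-330, or 0.888 (0.691 to 1.12), 1.23 (1.02 to 1.48) and 1.76 (1.505 to 2.04) CPM. Within the macrophage-marker cluster it was at 12.999 (9.45 to 17.5), 11.1 (8.55 to 14.1) and 18.7 (15.4 to 22.5) CPM. Sham and UAC could not be separated at this depth, at a log2 ratio of −0.24 (−0.80 to 0.36) that is 0.29 per macrophage-marker UMI, while the miR-330 step had a log2 ratio of 0.75 (0.30 to 1.22) with intervals apart but short of the fold. Cluster 19 of UAC + miR-330, in which all 8 listed T and NK markers and 6 of 7 mast and basophil markers were enriched, had Cx3cr1 at 15.9 (11.2 to 22.0) CPM from 37 UMIs, overlapping with its macrophage-marker cluster. In UAC cluster 17, with 8 of 8 T and NK markers but 1 of 7 mast and basophil markers enriched, Cx3cr1 was at 2.28 CPM from 5 UMIs. In the second C1q cluster Cx3cr1 rested on 7, 14 and 3 UMIs, below the 50 needed for a call. Its miR-330 step there had a log2 ratio of −1.78 (−4.39 to −0.11), opposite in sign to the macrophage-marker cluster, although the intervals in CPM met.

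The 8 genes thus did not move as a block in the macrophage-marker cluster. From sham to UAC the C1q chains, Cd163 and Mrc1 passed the fold in CPM, while Adgre1, Cd68 and Cx3cr1 lay between log2 ratios of −0.24 and 0.19. From UAC to UAC + miR-330, Cd163 at 1.03, Mrc1 at 0.98 and Cx3cr1 at 0.75 had the highest log2 ratios, and the C1q chains, Adgre1 and Cd68 were at 0.24 or below. A difference between these genes was not tested.

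The other macrophage markers divided in a like manner. Of 23, 20 were tested in the macrophage-marker cluster, and from sham to UAC 8 were called lower and 0 higher, with a median log2 ratio of −0.71 against −0.06 over all genes. The 8 were the iron exporter Slc40a1 at −3.49, the scavenger protein Cd5l at −2.95, Axl at −2.39, Spic at −2.17, haem oxygenase Hmox1 at −2.11, Mertk at −2.00, Siglec1 at −1.50 and the folate receptor Folr2 at −1.37. Per macrophage-marker UMI, which adds 0.52 to each ratio of this step, Folr2 and Siglec1 lose the call and Lyve1 is called higher. Axl and Mertk are receptors for dying cells, and Spic is a transcription factor of iron-recycling macrophages. Csf1r at 0.02, the scavenger receptor Msr1 at −0.05, the antibody receptor Fcgr1a at −0.01 and the protease Ctss at 0.09 did not differ by more than counting error. Lyve1, a hyaluronan receptor, was at 11.8, 19.8 and 36.9 CPM. The miR-330 step had 0 of 20 called, with a median of 0.18, Slc40a1 and Lyve1 both at 0.90, Spic at −0.91 and Cd14 at −0.79. With deposited mean counts, which add 0.24 to each ratio of this step, Slc40a1, Siglec1 and Lyve1 are called higher.

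**Figure D3:**
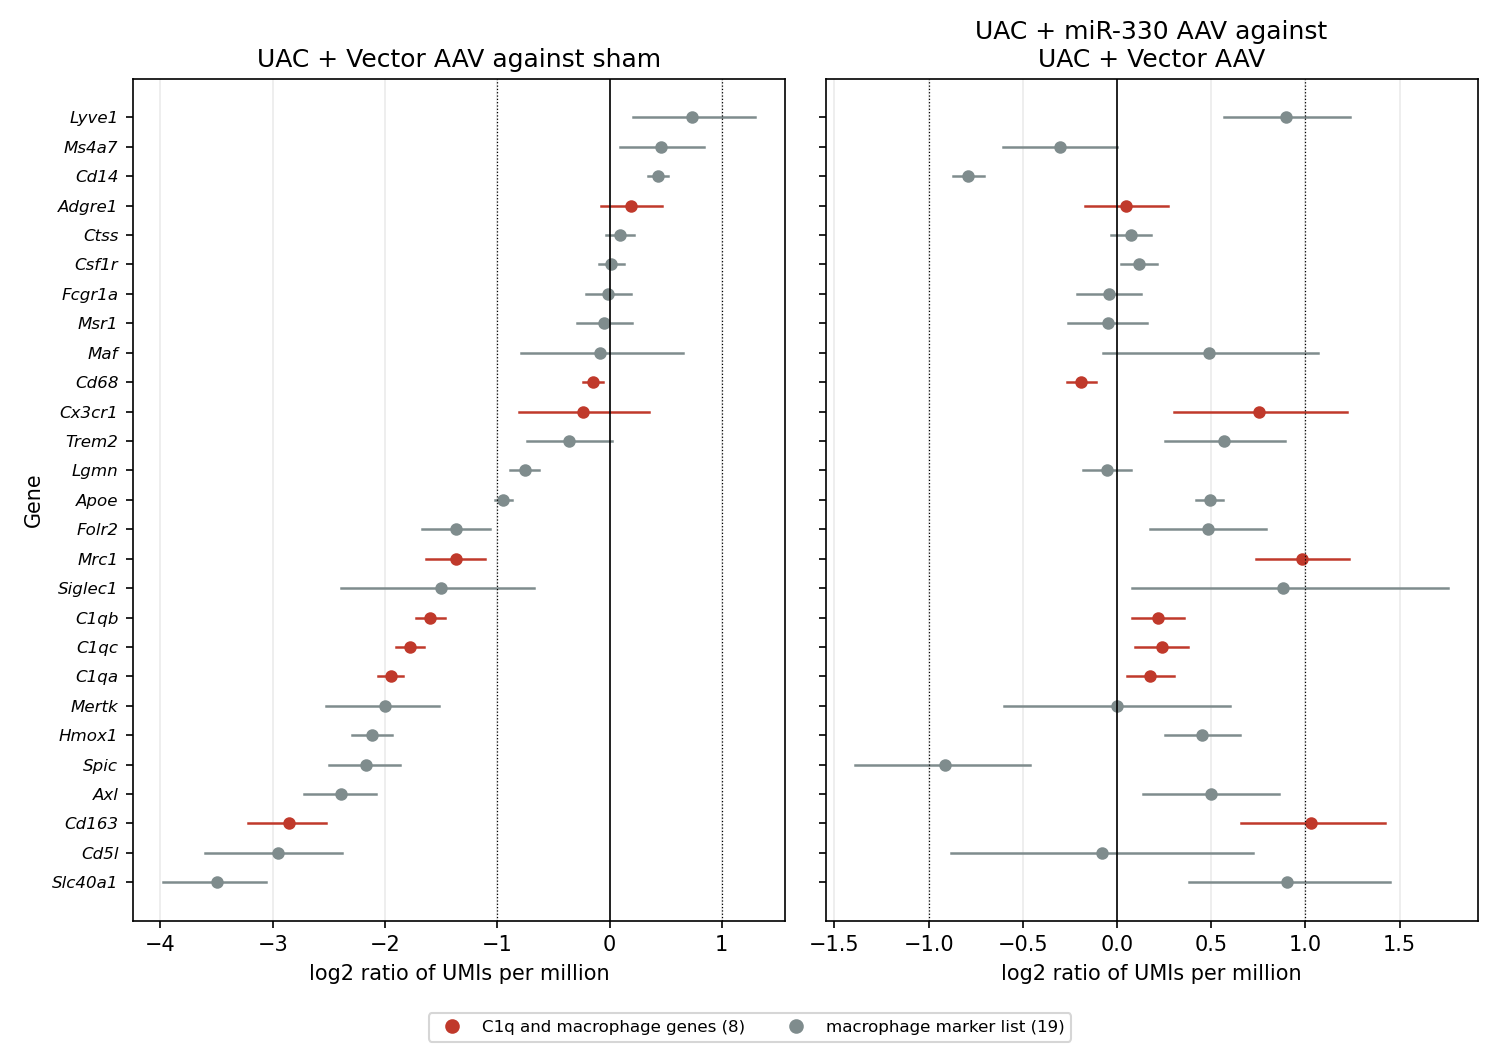
Log2 ratios of UMIs per 1000000 in the macrophage-marker cluster for the 8 genes (red) and 19 of the 20 other macrophage markers tested (grey), UAC against sham on the left and UAC + miR-330 against UAC on the right, with exact conditional binomial 95% intervals. Genes are ordered by the left panel and dotted lines mark a 2-fold difference. Cd163 lies at −2.86 on the left and 1.03 on the right, and Cd68, whose sign on both sides turns with deposited mean counts, at −0.15 and −0.19.

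Markers of mast cells and red cells in the macrophage-marker cluster were lower in UAC too, as the C1q genes were. Mast and basophil markers, 7 of 8 listed, summed to 507 CPM in sham, 12.3 in UAC and 13.03 in UAC + miR-330, with 5, 0 and 0 enriched and Mcpt10 the most abundant in each. Erythroid markers, 7 of 8 listed and none enriched, summed to 1150, 49.9 and 69.3 CPM, with Hba-a1 on top. None of either list was at 0 except Fcer1a in UAC + miR-330. From sham to UAC all 4 tested genes of each list were called lower, at medians of −5.24 and −4.21. Their part in the fall of C1qa, C1qb, C1qc, Cd163 and Mrc1 was not tested.

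Monocyte markers were steadier beside the 8 genes, with 5 of 7 listed enriched in each library, sums of 3360, 3607 and 3947 CPM, Fcnb on top and Ace at 0. Neutrophil markers summed to 6414, 6224 and 4151 CPM over 12 genes, led by S100a8, with 1 enriched in each and Ltf at 0 in sham and UAC. Dendritic cell markers had 6, 3 and 6 of 10 enriched and summed to 178, 134 and 182 CPM, led by Clec10a, with Ccr9 at 0 in UAC. B cell markers, 9 listed and none enriched, summed to 828, 492 and 504 CPM with Ebf1 on top. T and NK markers, 8 listed and none enriched, summed to 40.8, 33.1 and 30.9 CPM, with Nkg7 on top in sham and UAC + miR-330 and Cd2 in UAC, Ncr1 at 0 in all and Cd3e and Klrd1 in sham. Chondrocyte markers, 9 with 1 enriched in each, summed to 116, 92.9 and 91.0 CPM, led by Col2a1 in sham and Prg4 in the UAC libraries, with Matn3 at 0 in sham and UAC + miR-330. Osteogenic and fibroblast markers, 10 with none enriched, summed to 295, 175 and 189 CPM, led by Col1a1 in sham and Runx2 in the UAC libraries, and those at 0 were Pdgfra in sham, Ibsp and Sp7 in UAC and Sp7 and Pdgfra in UAC + miR-330. Endothelial markers, 6 with 2, 1 and 1 enriched, summed to 26.3, 20.1 and 25.2 CPM, led by Eng, with Emcn at 0 in all and Cdh5 in sham and UAC. Osteoclast markers, with 2, 3 and 2 enriched, summed to 292, 238 and 154 CPM, led by Acp5 in sham and Nfatc1 in the UAC libraries, with Calcr at 0 in sham and UAC + miR-330 and Dcstamp in UAC. Called from sham to UAC were 1 lower of 4 tested dendritic markers, 2 higher and 1 lower of 7 osteoclast markers, 1 higher and 2 lower of 4 chondrocyte markers, 1 lower of 4 osteogenic and fibroblast markers and 1 higher of 9 neutrophil markers. From UAC to UAC + miR-330 they were 3 higher of 5 dendritic markers, 4 lower of 7 osteoclast markers, 1 higher of 6 monocyte markers, 1 lower of 6 B cell markers, 2 higher and 2 lower of 10 neutrophil markers and 1 lower of 4 osteogenic and fibroblast markers. The part of these cells in the levels of the 8 genes was not tested either.

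Beyond C1q, the complement system was followed in the macrophage-marker cluster. Of 23 complement components 8 were tested from sham to UAC, and 2 were called lower with 0 higher, at a median log2 ratio of −0.41. Cfd, the protease that starts the alternative pathway, was at 587, 91.9 and 89.9 CPM, and Fcna, a ficolin of the lectin pathway, at 382, 108 and 109. Both were highest in sham, as C1q was. Fcnb, a second ficolin and also a monocyte marker here, was at 1919, 1801 and 2074 CPM, and Cfp, which stabilises the alternative pathway enzyme, at 338, 237 and 193. In the miR-330 step 9 were tested, and 1 was called higher with 0 lower at a median of 0.20. That gene was C6, part of the membrane attack complex, on 0, 5 and 51 UMIs.

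Of 11 complement regulators 4 were tested in that cluster, and from sham to UAC 2 were called higher and 0 lower, at a median of 0.66. These were Cd55 at 158, 319 and 241 CPM and Cd59 at 94.2, 200.2 and 170 CPM, membrane proteins that shield cells from complement, opposite in direction to C1q. The miR-330 step gave 0 called of 4 and a median of −0.04. Of 15 complement receptors 9 were tested in each step with 0 called, at medians of −0.07 and 0.01, although C3ar1 and Itgb2 are called higher from sham to UAC per macrophage-marker UMI. Among these, Calr, which together with its partner on the cell surface binds the C1q stalk, was at 397, 350.2 and 370 CPM, and the integrin chain Itgb2 at 316, 457 and 420 CPM.

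Uptake genes near Cd163 and Mrc1 in function were read in the same cluster. Of 14 scavenger receptors and lectins 9 were tested, with 2 called lower from sham to UAC, Siglec1 and Cd5l, both also on the marker list, and a median of 0.14. Siglec1 loses the call per macrophage-marker UMI, and Olr1 is called higher on that scale and with deposited mean counts. Olr1, which takes up oxidised lipoprotein, was at 217, 387 and 257 CPM, and the fungal glucan receptor Clec7a at 204, 246 and 258. Of 13 genes for phagocytosis of dying cells 9 were tested and 5 were called lower, Mertk, Axl, Gas6, Mfge8 and Itgb5, at a median of −1.24, of which Mfge8 loses the call per macrophage-marker UMI, where Itgav is called higher. Gas6, which bridges dying cells to Axl and Mertk, was at 25.7, 5.28 and 15.4 CPM. From UAC to UAC + miR-330 it was the single gene of this list called, at a log2 ratio of 1.53 with the list at 0.46, while the scavenger list had 0 called of 9 (with mean counts Siglec1 higher) and a median of −0.04.

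Growth factor and chemokine genes stood beside Cx3cr1 as its list. Of 8 in the CSF1 and fractalkine axis 5 were tested, with 1 called lower from sham to UAC at a list median of −0.01. It was Csf1, the ligand of Csf1r, at 21.9, 2.22 and 8.02 CPM. In the miR-330 step Csf1 was called higher at 1.82, and Ccl2, a chemokine for monocytes, was called lower at −1.13, a call lost with deposited mean counts, with 938, 771 and 353 CPM and a list median of 0.12.

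Of 13 myeloid transcription factors all were tested, with 3 called lower from sham to UAC, Irf8 at −1.13, Nr1h3 at −1.34 and Spic, at a median of 0.11. The Irf8 call is lost with deposited mean counts, and those of Irf8 and Nr1h3 per macrophage-marker UMI, where Zeb2 is called higher. In the miR-330 step 0 were called at a median of −0.21, and with mean counts Irf8 is called higher. Of 17 lysosome genes, the compartment of Cd68, all were tested with 0 called in either step, at medians of −0.17 and −0.08. Psap, a lysosomal sphingolipid activator, was at 2105, 1870.2 and 1699 CPM, descending across the libraries as Cd68 did in CPM. Of 12 genes of haem and iron handling, the task of Cd163, 10 were tested, with 4 called lower from sham to UAC, Hmox1, Slc40a1, Blvrb and Ncoa4, at a median of −0.22. Blvrb and Ncoa4 lose the call with deposited mean counts and per macrophage-marker UMI. Hmox1 was at 262, 60.5 and 82.9 CPM. The miR-330 step had 0 of 10 called, at a median of −0.15, although Slc40a1 is called higher with mean counts.

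The same 9 lists were read across whole libraries. From sham to UAC at most 2 genes of any of the 9 lists were called in either direction, and the list medians lay between −0.19 and 0.45. From UAC to UAC + miR-330 at most 1 gene of any list was called in either direction, with medians between −0.12 and 0.19.

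The genes most like each of the 8 were sought by Pearson r of log2(CPM + 1) across the clusters of 1 library, over 11724 genes with at least 100 UMIs in every library, ranked by the lowest r of the 3 libraries. Clusters of a library share its depth and its preparation, so r is a description of 15, 18 and 19 points. For the summed C1q chains the first 5 were Vcam1 (lowest r 0.90), Tmem176b (0.90), Cd163 (0.89), Spic (0.88) and Fabp4 (0.88). Without the 2 C1q clusters r differed between libraries, at 0.33, −0.33 and 0.73 for Vcam1, 0.69, −0.40 and 0.53 for Tmem176b and 0.14, −0.31 and 0.73 for Cd163. Spic was then at 0.50, 0.11 and 0.24, and Fabp4 at 0.50, 0.15 and 0.54. Vcam1, an adhesion molecule, was at 160, 10.2 and 30.7 CPM in the macrophage-marker cluster, and Fabp4, a fatty acid carrier, at 365, 71.4 and 22.9 CPM. Cd163 was most like Vcam1 (0.95), Tmem176b (0.95) and Tmem176a (0.92). Mrc1 was most like Tfec (0.87), Clec4a1 (0.86) and Trem2 (0.82). For Adgre1 they were Hmox1 (0.77), Npc2 (0.74) and Il15 (0.70), for Cd68 Fcna (0.88), Ugt1a7c (0.85) and Msr1 (0.83), and for Cx3cr1 Adora2a (0.86), Ly49si1 (0.84) and Havcr2 (0.83). Without the C1q clusters Tfec and Clec4a1 with Mrc1, all 3 genes with Adgre1, and Fcna and Ugt1a7c with Cd68 kept an r of at least 0.63 in every library. Trem2 with Mrc1 came to 0.11, 0.34 and 0.45 there, and Msr1 with Cd68 to 0.09, 0.44 and 0.55. The genes like Cd163 and Cx3cr1 were at 0.32 or below in sham and higher in the UAC libraries, at 0.31 to 0.84 for Cd163 and 0.71 to 0.81 for Cx3cr1. Outside the C1q clusters, however, Cd163 had 11, 10 and 22 UMIs in all and Cx3cr1 18, 35 and 56. These r values thus rest on few molecules, and a difference between libraries cannot be read from them.

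C1qa, C1qb and C1qc are neighbours in the genome as well. In RefSeq annotation of the rat assembly GRCr8 they lie on chromosome 5 in the order C1qb, C1qc, C1qa, with 0 other genes between them. RefSeq promoter windows were matched by symbol for 7 of the 8 genes, and C1qc had no entry. The 250 bases before the start of C1qa (chr5:154419934-154420183, minus strand) and C1qb (chr5:154407828-154408077, minus strand) are shown, these being the C1q chains with an entry. They run 5′ to 3′ on the gene's strand, and capitals mark GGAAGT, a core bound by ETS factors such as PU.1, and TGCTGA, part of a bZIP factor site, on either strand. Reversed, the former reads ACTTCC, and the latter, when it lies on the opposite strand of the gene, reads TCAGCA.
C1qa: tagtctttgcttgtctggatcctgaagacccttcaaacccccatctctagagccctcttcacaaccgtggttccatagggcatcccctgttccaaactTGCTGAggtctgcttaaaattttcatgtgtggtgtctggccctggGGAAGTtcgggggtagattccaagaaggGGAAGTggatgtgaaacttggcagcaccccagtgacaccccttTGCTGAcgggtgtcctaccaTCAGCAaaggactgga
C1qb: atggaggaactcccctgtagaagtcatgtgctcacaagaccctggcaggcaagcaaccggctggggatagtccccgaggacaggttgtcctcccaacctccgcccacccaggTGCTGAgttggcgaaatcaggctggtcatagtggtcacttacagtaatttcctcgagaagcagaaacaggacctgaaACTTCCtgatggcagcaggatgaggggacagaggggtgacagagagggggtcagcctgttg

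C1qa has 2 matches to GGAAGT and 3 to TGCTGA, and C1qb has 1 of each, with 0 overlaps between marked letters. Of 33469 promoter windows of the same length, 19.2% hold GGAAGT and 15.1% hold TGCTGA on either strand. Among the 7 genes with a window, GGAAGT is in 4 (C1qa, C1qb, Mrc1 and Cd68) and TGCTGA in 3 (C1qa, C1qb and Adgre1). A further ETS-like core, GAGGAA, whose reverse reads TTCCTC and which can share letters with GGAAGT, is in 4 (C1qb, Mrc1, Adgre1 and Cd68) and in 23.3% of windows. The E-box CACGTG, the C/EBP site TTGCGCAA and the TATA box TATAAA, whose reverse reads TTTATA, are in 0 of the 7 and in 5.59%, 0.14% and 12.9% of windows. A match describes letters and shows no binding of a factor.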

How the data were processed

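Rat condyle RNA was sequenced from 3 libraries, 1 per group, with 10x 3′ chemistry. The submitters' processing notes name Cell Ranger 7.0, STAR and Seurat 4.0.1 and the builds GRCh38 and mm10, whereas the identifiers are rat Ensembl ones; the build of the tables is not given in the sources used here. The authors deposited a normalized signal, the mean count of each gene in each cluster. Their deposited log2 values and p-values refer to differences among clusters and were not used. Each mean was divided by the smallest positive mean of its column, and 100% of values came out whole (within 0.01), which gave UMIs. Names on more than 1 identifier (101, 106 and 116) were summed.

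A count model was not run, since 1 library per group leaves no spread to fit. Log2 ratios had 0.5 UMI added to each count. The smallest cluster held 1352666 UMIs. No barcodes are in the tables, so doublets, free RNA and barcodes shared between libraries were not treated.

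The 8 genes, the 12 cell type marker lists and the 9 gene lists were chosen with earlier results of these data known. Named genes are the 8, the 3 with the most UMIs of each list in the macrophage-marker clusters, its 2 largest rises and falls with intervals apart, and the genes most like each of the 8, from which the text draws. Other called genes (Mfge8, Itgb5, Blvrb, Ncoa4) and macrophage markers given one by one were chosen after their values were seen, as were the clusters and shares singled out for one gene.

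Alternatives were deposited mean counts, totals that leave out haemoglobin, immunoglobulin, ribosomal protein and mitochondrial genes, totals of macrophage markers, 5 UMIs added, 1 identifier per name, minimums of 10 UMIs and none, a fold of 1.5, and wider sets of clusters. Python 3.11.15, numpy 2.4.6, pandas 2.3.3, scipy 1.17.1 and matplotlib 3.10.9 were used, and the comparisons were tested on simulated data. Sequences are from RefSeq (GRCr8).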

Additional observations from a re-analysis of the deposited data

Results flagged for a closer look

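Cd68 had opposite signs in different clusters of the same step. From sham to UAC its log2 ratio was −0.15 in the macrophage-marker cluster and 0.25 in the clusters outside the 2 C1q clusters, a difference of 0.40. From UAC to UAC + miR-330 it was −0.19 in the macrophage-marker cluster and 0.83 in the second C1q cluster, a difference of 1.02. These are CPM, and the sign in the macrophage-marker cluster turns with deposited mean counts (0.047 in each step). Neither difference was tested, since each group is 1 library.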

How the results depend on the processing

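No paired analysis was possible because each condition had 1 library, and leaving out a replicate was not possible for the same reason. Depth limits Cx3cr1 most, with 69 UMIs in the sham library. Scalings shift all genes of a step alike, so which ratios turn in sign depends on how near 0 they lie. Among the 8 genes Cd68 turned in 4 values across the alternatives. From sham to UAC over whole libraries it did not turn, lying between 0.27 and 0.55. Cx3cr1 turned within its counting interval, from −0.24 to 0.29 per macrophage-marker UMI (sham to UAC, macrophage-marker cluster). Of 72 counts of called genes in the lists, 68 were the same with a minimum of 10 UMIs and 4 rose by 1. The summed C1q ratio kept its direction in all 24 values, of which 14 stayed within the counting interval.

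Deposited mean counts differ from CPM by a constant, so the median of all genes shifts by 0.20 (UAC to sham) and 0.24 (UAC + miR-330 to UAC), and ratios move with it. The C1q sum then had −0.79 and 0.61 over whole libraries and −1.60 and 0.44 in the macrophage-marker cluster. Cd68 turned to 0.10 over whole libraries in the miR-330 step and to 0.047 and 0.047 in the cluster. Of the 8 genes 1 was called lower from sham to UAC over whole libraries (0.871% of all genes), and in the miR-330 step 2 higher over whole libraries (5.18%) and 2 in the cluster (7.57%).

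Per macrophage-marker UMI, which shifts the median of all genes in the macrophage-marker cluster by 0.52 from sham to UAC because the marker list itself was lower there, the C1q sum was at −1.07 over whole libraries and −1.27 in the cluster, and Cd68 in the cluster at 0.37, with −0.23 in the miR-330 step. With a fold of 1.5 the genes called were 4 lower from sham to UAC (5.11% of all genes) and 2 higher in the miR-330 step (9.93%) over whole libraries, and 3 higher in the cluster (10.9%).

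Summing every cluster with at least 5 enriched macrophage markers gave C1q ratios of −0.69 and 0.40 and C1q shares of 96.6% in UAC and 90.1% in UAC + miR-330. Those sets take in the cluster with chondrocyte, osteogenic and fibroblast markers in each library and the second C1q cluster in the UAC libraries alone. Summing the macrophage-marker and second C1q clusters, an alternative chosen after seeing the data, gave −1.53 and 0.42, C1q shares of 89.0%, 96.3% and 89.8%, 2 genes higher in the miR-330 step (5.69% of 9904 genes) and a C1qa share of 40.0% in UAC + miR-330.

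The 9 gene lists under other scalings were also chosen after seeing the data. Counts of called list genes, CPM first, went over whole libraries from 3 higher to 8 (mean counts) and 1 (per marker UMI) and from 3 lower to 5 (per marker UMI) from sham to UAC, and in the miR-330 step with mean counts from 2 higher to 5 and from 2 lower to 0. In the macrophage-marker cluster they went from 2 higher to 7 and 17 lower to 11 (per marker UMI, sham to UAC), and with mean counts from 3 higher to 6 and 1 lower to 0 (miR-330 step). Each scaling adds 1 constant to all genes of a step, so genes near the fold cross it.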
